A study of Mus musculus with 16 samples.

Results

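The 30 genes described here are marker genes of microglia, the resident macrophages of the brain, chosen by name from knowledge of this cell type, by a rule that used no values of these samples but was written with earlier results of these data known. Each of the 30 had exactly 1 entry among the 36930 gene entries of the expression table, and 27 had values in every pup. The table holds RNAseq of whole brain cortices of 16 C57BL6 mouse pups at postnatal day 7 (P7), in a study of repeated excitation of sensory neurons in early life. The 8 Avil-ChR2 pups carry Cre recombinase under the advillin promoter (Avil), a driver of expression in sensory neurons. Cre removes a STOP in front of the light-gated channel ChR2, which is inserted in the Rosa26 locus. The 8 ChR2-flfl pups carry floxed ChR2 without Cre recombinase and served as controls. Pups of both genotypes were exposed to blue light for 1 h per day from P1 to P5, so the comparison is one of genotype under the same light. Litters are not given in the labels.

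Microglia enter the brain before birth, persist by local division, and depend on the receptor CSF1R and on the transcription factors PU.1 (Spi1), IRF8 and SALL1. In the first postnatal weeks they clear dying cells and surplus synapses, using phagocytic receptors that signal through adaptor proteins with ITAM motifs, complement, and lysosomal proteases. Resting cortical microglia are recognized by Tmem119, P2ry12, Siglech and Olfml3, whereas many of the other markers, such as Ptprc, Cd53 or Laptm5, are shared with other leukocytes, and Sall1 is also made by neural precursors. In whole tissue, fewer microglia and less RNA per microglial cell cannot be told apart.

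The values are normalized reads, that is CPM scaled with TMM factors by the authors. They correspond to 30549126 to 48711134 reads per pup, and the reads behind a member in a pup ranged from 37 to 2055. Avil itself had 0.825 to 1.46 normalized reads in ChR2-flfl and 37.3 to 46.4 in Avil-ChR2 cortices, so genotype labels and Avil values matched in all 16 pups. The labels list Avil-ChR2 replicate 4 as female and the study's supplementary file as male, and its 54.7 normalized reads of the Y-linked gene Ddx3y lay among those of the labelled males. Pup numbers form a run from 26 to 33 and another from 35 to 42, each holding 4 ChR2-flfl and 4 Avil-ChR2 pups, and no source says what the runs stand for. One pup stood apart in the microglia markers. ChR2-flfl replicate 1 had the lowest value of all 16 pups in 20 of the 27 measured members, where no other pup was lowest in more than 3. Results of the genotype comparison, the spread and the co-variation are therefore given with and without this pup where it mattered. The fits for sex, interaction and pup numbers were not repeated without it.

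P2ry12, P2ry13 and Gpr34, receptors found in many lists of microglial genes, had no value in any pup. P2ry12 and P2ry13 are receptors for purine nucleotides, the first of which guides microglial processes to sites of ATP release, and Gpr34 is a receptor for lysophosphatidylserine. P2ry13 (chr3:59207892-59210882) and P2ry12 (chr3:59216271-59263005 on GRCm38) lie on the minus strand inside Med12l, which is annotated on the plus strand. Gpr34 (chrX:13623417-13640859, plus strand) lies inside Cask on the minus strand. All 7 entries inside Med12l and all 3 inside Cask lacked values. In the whole table, 93.6% of the 3453 entries that lie inside an entry of the opposite strand only had no value in any pup, and 95.5% of the 2266 inside an entry of the same strand only, against 10.1% of the 31060 entries that lie inside no other. The missing values therefore go with the position of these genes in the table and give no measure of their expression. Whether reads of the 3 receptors were assigned to their host genes was not tested. The normalized reads of Med12l were 46.1 ± 2.07 in ChR2-flfl against 44.2 ± 2.27 in Avil-ChR2 cortices (SD, n = 8 each). Those of Cask were 201 ± 8.67 against 193 ± 4.28 (SD, n = 8 each). Neither host gene passed the test between genotypes (limma adjusted p = 0.93 for Med12l and 0.91 for Cask).

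Expression levels were compared between members only per kilobase of the longest annotated transcript, because longer transcripts give more reads. The longest transcript need not be the one that was measured. For Olfml3 it had 5465 bases, more than its entry spans (chr3:103735394-103738001), so the place of this gene in the order is uncertain. The highest levels were found for Ctss, the lysosomal protease cathepsin S, with 8.83 ± 0.920 normalized reads per kb (SD over 16 pups), and for Csf1r with 7.99 ± 0.968. Tyrobp, which encodes the adaptor DAP12, followed with 7.13 ± 1.00, Fcrls with 6.88 ± 0.847 and the lysosomal membrane protein Laptm5 with 6.82 ± 0.759. Along this order, the gaps from Ctss, Csf1r, Tyrobp and Fcrls to the next gene stayed within the combined spread of both genes. Laptm5 stood clear of the next member, the IgG receptor Fcgr3, with 4.56 ± 0.695. The combined spread ignores that both genes were measured in the same pups. Pup by pup, Ctss was above Csf1r in 14 of 16, Csf1r above Tyrobp in 15, Tyrobp above Fcrls in 10 and Fcrls above Laptm5 in 9. The lowest levels were those of the SLAM family receptor Cd84 with 0.416 ± 0.0558 and the leukocyte phosphatase Ptprc with 0.433 ± 0.0637. Of the 26 pairs of neighbours in this order, 4 were separated by more than the combined SD of both genes (the square root of their summed variances), among them Olfml3 and Spi1. Inpp5d was above Tmem119 in all 16 pups, although this pair was not among the 4. Tmem119 had 1.81 ± 0.341 normalized reads per kb and ranked in the middle.

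The question of the genotype comparison was whether cortical microglia markers differ after 5 days of light in pups whose sensory neurons respond to it. None of the 27 measured members passed the limma test with adjustment over all 21183 genes analyzed, in which 0.00944% of the genes had an adjusted p under 0.05. At an unadjusted p under 0.05, 2 members were higher in Avil-ChR2 cortices, Cd84 and Fcgr3, and 0 were lower, against 1.95% of all genes that were higher and 3.46% that were lower. A limma voom fit on the recovered reads also gave 0 members at an adjusted p under 0.05 and the same 2 at an unadjusted p. The log2 difference, Avil-ChR2 minus ChR2-flfl, was above 0 in 21 members and below 0 in 6. Its median was 0.070 over the members and 0.0020 over all genes. Without ChR2-flfl replicate 1, 17 members were above 0 and the median was 0.024. The median was 0.015 with 15 members above 0 when only pups 26 to 33 were fitted, and 0.10 with 21 above 0 when only pups 35 to 42 were. Border macrophage markers, which share many genes with microglia, had 10 of 12 members above 0, as described further on.

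**Figure D1:**
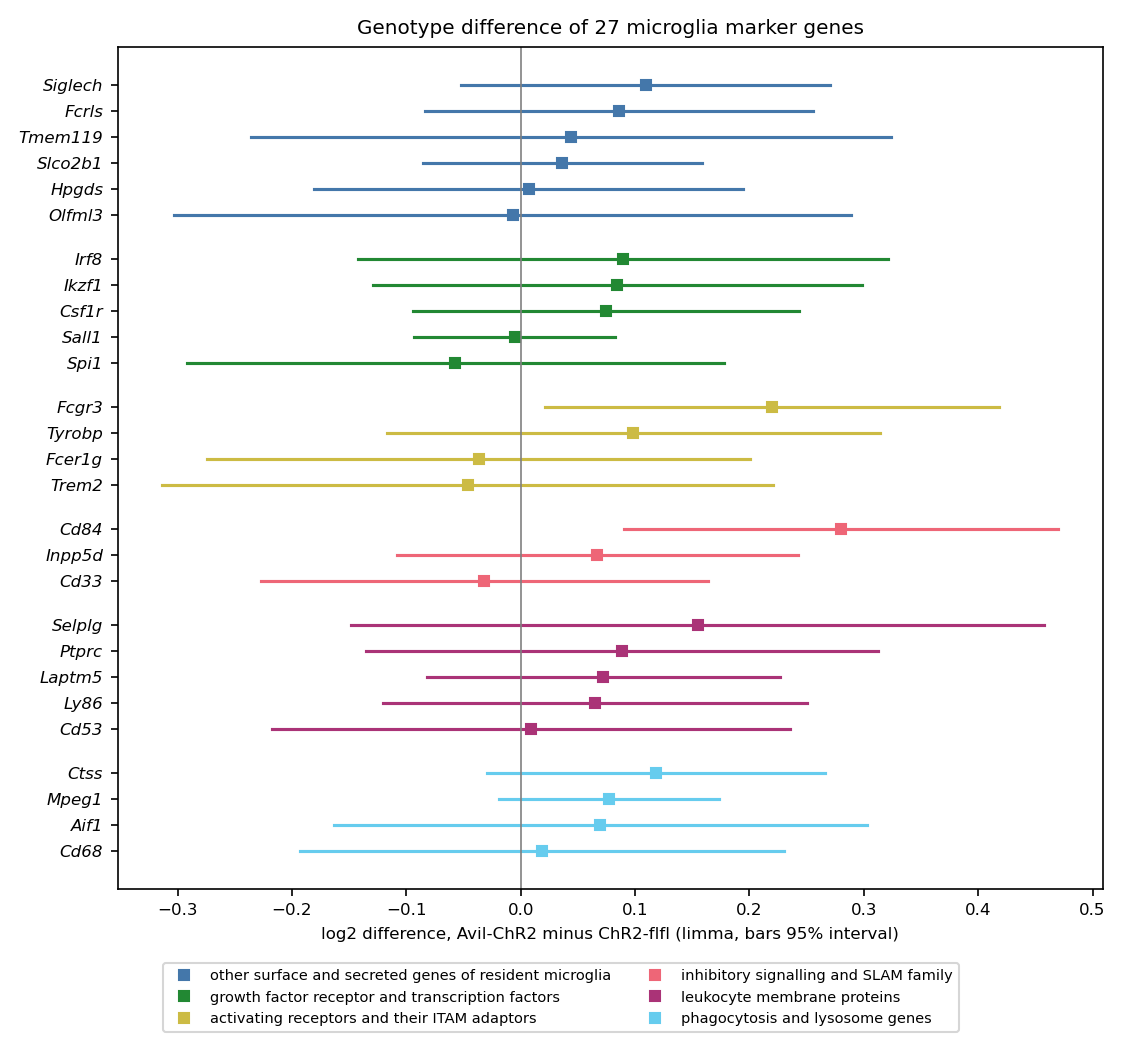
Log2 difference of each of the 27 measured microglia marker genes, Avil-ChR2 minus ChR2-flfl, with its 95% interval from limma, coloured by role. The estimates run from -0.057 for Spi1 to 0.28 for Cd84, and the intervals of Cd84 and Fcgr3 lie above 0 without adjustment.

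Cd84, a self-binding receptor of the SLAM family on leukocytes, had the smallest p of the members. Its lowest, median and highest normalized reads were 1.14, 1.32 and 1.38 in the 8 ChR2-flfl pups and 1.31, 1.56 and 1.80 in the 8 Avil-ChR2 pups. In 7 of 8 Avil-ChR2 pups it was above the highest ChR2-flfl pup, and replicate 7 fell within the ChR2-flfl range. The log2 difference was 0.28 (95% interval 0.090 to 0.47, limma adjusted p = 0.81). Fitted alone, the earlier pup numbers gave 0.29 and the later ones 0.27. It was 0.29 without ChR2-flfl replicate 1. Cd84 rested on few reads and, as shown further on, did not vary with the other members between pups.

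Fcgr3, an activating receptor for IgG, had 4.21, 5.56 and 7.36 normalized reads (lowest, median, highest of 8) in ChR2-flfl and 5.45, 6.64 and 7.64 in Avil-ChR2 cortices. The ranges overlapped widely, although only 1 of the 8 Avil-ChR2 pups fell under the median of ChR2-flfl. The log2 difference was 0.22 (95% interval 0.021 to 0.42, limma adjusted p = 0.88). For Fcgr3 the earlier pup numbers gave 0.079 and the later ones 0.36, a gap between the runs that was not tested. Without ChR2-flfl replicate 1 the Fcgr3 difference was 0.16, and its unadjusted p was no longer under 0.05. Fcgr3 and Cd84 are among the immune genes that the study picked for their difference in these same pups, so their direction is not independent evidence.

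The other activating receptors and ITAM adaptors had smaller differences than Fcgr3, on both sides of 0. Tyrobp, the adaptor of TREM2, had a log2 difference of 0.098 (standard error 0.10). For Trem2, a lipid receptor of phagocytic microglia, it was -0.046 (standard error 0.13). For Fcer1g, the signalling chain of Fc receptors including that of Fcgr3, it was -0.037 (standard error 0.11). Thus 2 of the 4 members of this group were above 0 and 2 below. In the inhibitory and SLAM group, the sialic acid receptor Cd33 had a log2 difference of -0.032 (standard error 0.094) and Inpp5d, the phosphatase SHIP1, one of 0.067 (standard error 0.084). Inpp5d was the most abundant gene of that group, with 8.31, 10.2 and 12.4 normalized reads (lowest, median, highest) in ChR2-flfl and 8.86, 10.96 and 12.2 in Avil-ChR2 cortices, almost the same range.

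All 4 phagocytosis and lysosome genes were above 0, but none passed the test. Ctss had 8.68, 11.6 and 13.97 normalized reads (lowest, median, highest of 8) in ChR2-flfl and 11.1, 12.2 and 13.7 in Avil-ChR2 cortices, giving a log2 difference of 0.12 (95% interval -0.029 to 0.27, limma adjusted p = 0.94). Its lowest pup was ChR2-flfl replicate 1, without which the Ctss difference was 0.062. Mpeg1, a pore-forming protein of phagosomes, had 12.4, 14.5 and 15.7 normalized reads in ChR2-flfl and 14.3, 15.4 and 16.04 in Avil-ChR2 cortices, with a log2 difference of 0.077 (95% interval -0.019 to 0.17, limma adjusted p = 0.94). For Mpeg1, 2 Avil-ChR2 pups were above the highest ChR2-flfl pup, and for Ctss all lay within the ChR2-flfl range. For Aif1, which encodes the actin-binding protein IBA1, the log2 difference was 0.070 (standard error 0.11), and for the lysosomal glycoprotein Cd68 it was 0.019 (standard error 0.10).

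Of the receptor and transcription factors that define the lineage, 3 of 5 were above 0, with a median of 0.075, and none passed the test. Csf1r had 27.2, 35.0 and 44.2 normalized reads (lowest, median, highest) in ChR2-flfl and 32.5, 39.2 and 42.1 in Avil-ChR2 cortices, so that all Avil-ChR2 pups lay within the ChR2-flfl range. Its log2 difference was 0.075 (95% interval -0.094 to 0.24, limma adjusted p = 0.97). Sall1 gave the narrowest interval of the members, with a log2 difference of -0.0054 (95% interval -0.093 to 0.082). Spi1 had a log2 difference of -0.057 (standard error 0.11), Irf8 one of 0.089 (standard error 0.11) and the lymphoid and myeloid factor Ikzf1 one of 0.084 (standard error 0.10). Spi1 was the member with the lowest estimate, and its sign was the same in all 27 alternative fits.

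None of the genes that set resident microglia apart passed the test either. Siglech, a sialic acid binding receptor, had 4.27, 5.44 and 6.20 normalized reads (lowest, median, highest) in ChR2-flfl and 5.10, 5.63 and 6.34 in Avil-ChR2 cortices, giving a log2 difference of 0.11 (95% interval -0.052 to 0.27, limma adjusted p = 0.95). Slco2b1, an organic anion transporter, had 15.8, 17.9 and 20.98 in ChR2-flfl and 16.9, 18.9 and 20.1 in Avil-ChR2 cortices, giving a log2 difference of 0.036 (95% interval -0.085 to 0.16). The groups overlapped over most of their range in both genes. Fcrls, an Fc receptor-like scavenger protein, had a log2 difference of 0.086 (standard error 0.081), and for Tmem119, a membrane protein of unknown role in the adult brain, it was 0.044 (standard error 0.13). Hpgds, which makes prostaglandin D2, and the secreted protein Olfml3 had log2 differences of 0.0069 (standard error 0.090) and -0.0070 (standard error 0.14).

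All 5 leukocyte membrane proteins were above 0, again without passing the test. Selplg, the selectin ligand PSGL-1, had 1.24, 1.74 and 2.70 normalized reads (lowest, median, highest) in ChR2-flfl and 1.72, 2.03 and 2.53 in Avil-ChR2 cortices, and the Avil-ChR2 pups lay inside the ChR2-flfl range. Its log2 difference was 0.15 (95% interval -0.15 to 0.46, limma adjusted p = 0.95), with the widest interval of the members. Laptm5 had 13.6, 17.01 and 21.7 normalized reads in ChR2-flfl and 16.6, 18.03 and 19.96 in Avil-ChR2 cortices, giving a log2 difference of 0.072 (95% interval -0.082 to 0.23). For Ptprc (CD45), Ly86 (the partner of the toll-like receptor homologue RP105) and the tetraspanin Cd53, the log2 differences were 0.089, 0.065 and 0.0089.

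**Figure D2:**
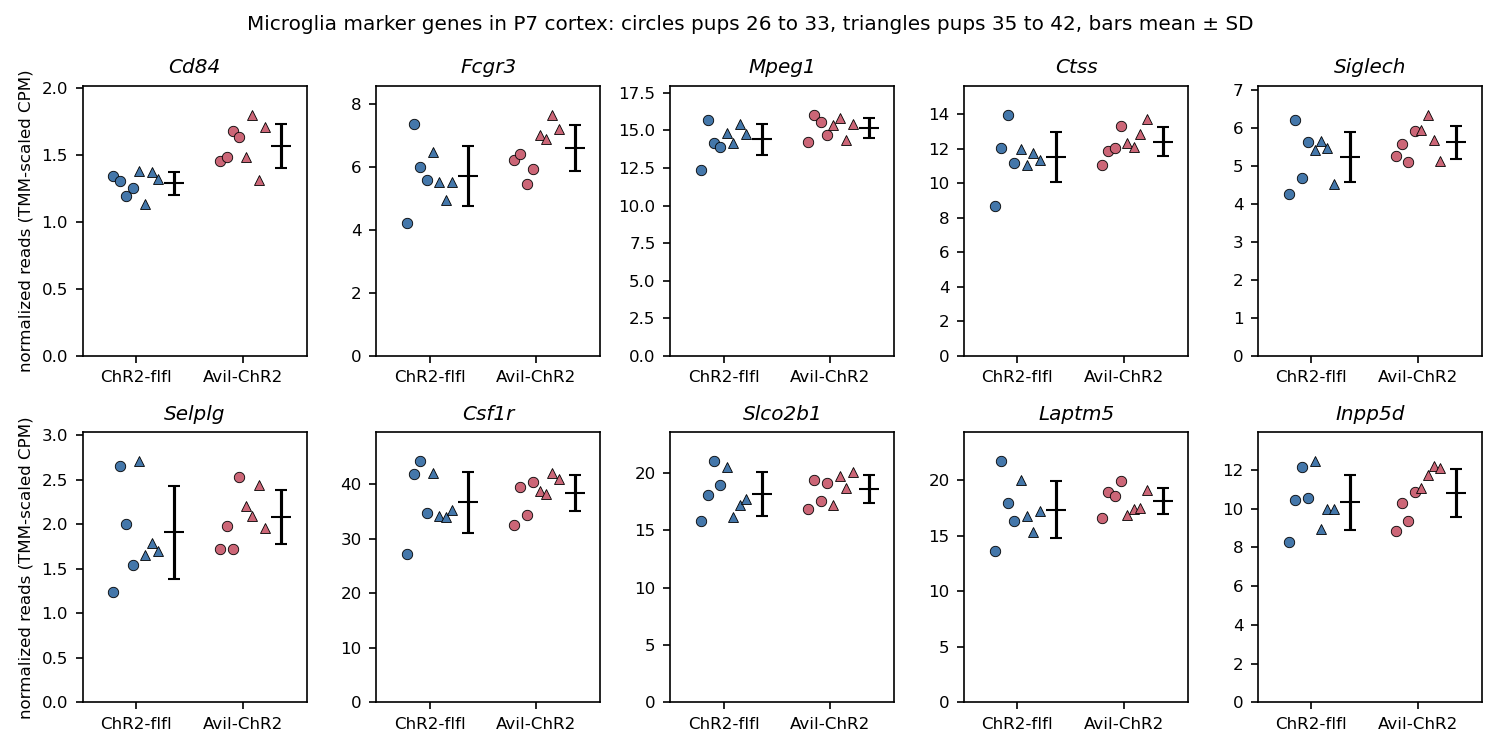
Normalized reads of 10 microglia marker genes in each pup, on linear axes from 0, with mean ± SD (n = 8) at the right of each group. In Cd84 7 of 8 Avil-ChR2 pups lie above the highest ChR2-flfl pup of 1.38, whereas the groups overlap in the other 9 genes, and the lowest circle of ChR2-flfl in most panels is replicate 1.

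The intervals show how large a difference these data allow. For all 27 members, the 95% interval of the log2 difference lay between -0.5 and 0.5, with bounds from -0.31 for Trem2 to 0.47 for Cd84. The median distance from the estimate to either bound was 0.20. The spread between pups within genotypes had a median SD of 0.20 on the log2 scale, and counting of the reads alone gives 0.10. The spread was 1.92 times the counting error in the median member, against 2.10 times over the 15115 genes whose mean log2 was 0 or more and that had reads in every pup. It was 5.37 times for Csf1r, the highest ratio, and 0.717 times for Cd84, the only member whose pups differed by less than counting error gives. In 21 of the 27 members (77.8%) the SD was larger in ChR2-flfl than in Avil-ChR2 pups, as in 60.5% of all genes analyzed. Without ChR2-flfl replicate 1 it was larger in 17 members, and the median SDs were then equal, with 0.17 in both genotypes.

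**Figure D3:**
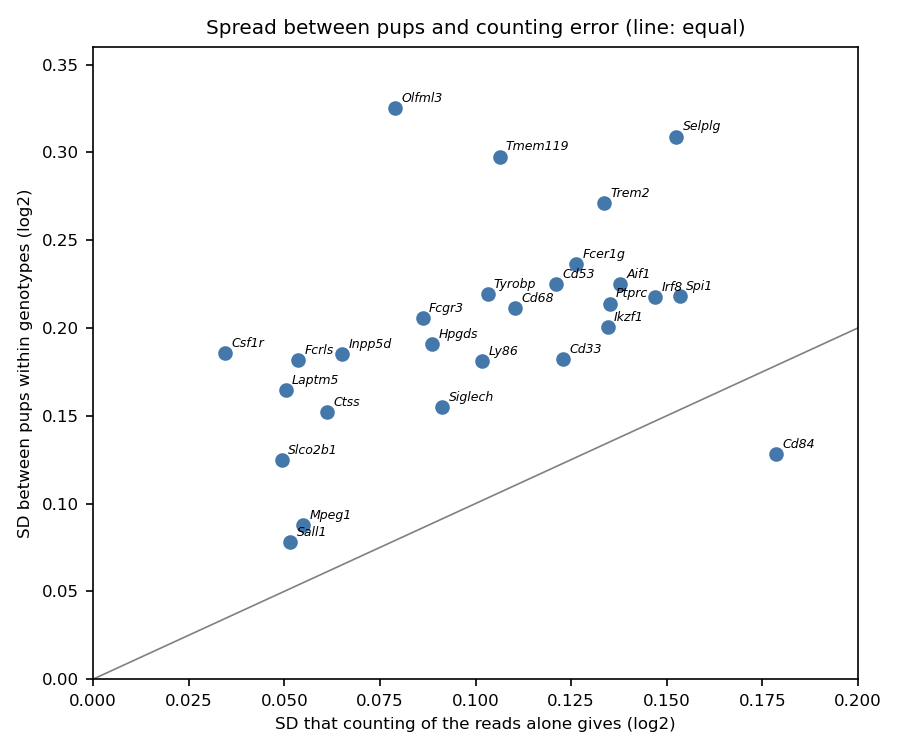
SD of the log2 values between pups within genotypes against the SD that counting of the reads alone gives, 1 point for each of the 27 microglia marker genes, with a line where both are equal. Cd84 is the only member under the line, and Csf1r, with 5.37 times the counting error, is the farthest above it in relative terms.

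Sex was recorded for every pup and was compared in 15 pups, without Avil-ChR2 replicate 4, with genotype as a covariate. No member passed the adjusted limma test, in which 0.0425% of all genes had an adjusted p under 0.05. At an unadjusted p under 0.05, 1 member was higher in females and 0 were lower, against 1.81% and 2.01% of all genes. This was Olfml3, a secreted glycoprotein of microglia, which had 6.44, 7.98 and 10.4 normalized reads (lowest, median, highest) in 8 females and 4.29, 6.60 and 7.86 in 7 males. The lower part of the female range overlapped with the male range, and the log2 difference, female minus male, was 0.36 (95% interval 0.096 to 0.63, limma adjusted p = 1.00). Cd33 had 2.76, 3.17 and 3.5 in females and 2.31, 2.83 and 3.32 in males, a log2 difference of 0.18 (limma adjusted p = 1.00), and Fcer1g had 2.28, 2.89 and 3.82 in females and 2.27, 2.42 and 3.07 in males, a log2 difference of 0.19 (limma adjusted p = 1.00). The lowest male of Olfml3 and Cd33 was ChR2-flfl replicate 1. In all, 21 of 27 members were above 0, with a median of 0.062, where the median of all genes was 0.0017. ChR2-flfl replicate 1 is 1 of the 7 males, and the sex fit was not repeated without it. The part of this pup in the lean above 0 was therefore not tested.

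The genotype difference in females minus that in males was tested as an interaction in the same 15 pups. No member reached an unadjusted p under 0.05 in either direction in limma, where 2.63% of all genes were higher and 2.09% lower. The member with the smallest p was Siglech, with an interaction of -0.26 (95% interval -0.59 to 0.080, limma adjusted p = 0.99). The median over the members was -0.089, with 19 of 27 below 0, where the median of all genes was -0.0011. ChR2-flfl replicate 1, a labelled male, is among these pups, and the interaction fit was not repeated without it. The part of this pup in the lean below 0 was therefore not tested.

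Between pups 26 to 33 and pups 35 to 42, with genotype as a covariate, no member passed the adjusted limma test, in which 0.123% of all genes had an adjusted p under 0.05. Ly86 was higher in the later numbers at an unadjusted p, and 0 members were lower, against 5.76% of all genes higher and 6.74% lower. Ly86 had 3.53, 4.07 and 4.38 normalized reads (lowest, median, highest of 8) in the earlier and 3.76, 4.87 and 5.31 in the later pup numbers, so that all but the lowest of the earlier pups lay inside the range of the later ones. The log2 difference was 0.23 (95% interval 0.075 to 0.38, limma adjusted p = 0.20). Inpp5d had 8.31, 10.4 and 12.2 in the earlier and 8.93, 11.4 and 12.4 in the later numbers, a log2 difference of 0.13 (limma adjusted p = 0.53). Spi1 went the other way, with 1.68, 2.02 and 2.43 against 1.51, 1.73 and 2.48 and a log2 difference of -0.16 (limma adjusted p = 0.58). The later numbers were above 0 in 20 of 27 members, with a median of 0.052, where the median of all genes was -2.9e-05. ChR2-flfl replicate 1 is a pup of the earlier numbers, and this fit was not repeated without it. The part of this pup in the lean above 0 was therefore not tested.

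The mean log2 value over the 27 members gave 1 measure of microglial transcripts per pup. It ranged from 2.01 to 2.52 in ChR2-flfl pups, with a mean of 2.35 ± 0.168 (SD, n = 8), and from 2.26 to 2.48 in Avil-ChR2 pups, with a mean of 2.41 ± 0.0855 (SD, n = 8). The difference of 0.062 was smaller than the SD of 0.13 within genotypes, and it was 0.015 without ChR2-flfl replicate 1. That pup had the lowest mean, 2.01, and the next lowest, Avil-ChR2 replicate 1 with 2.26, was also a pup of the earlier numbers. No test was made on this mean.

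**Figure D4:**
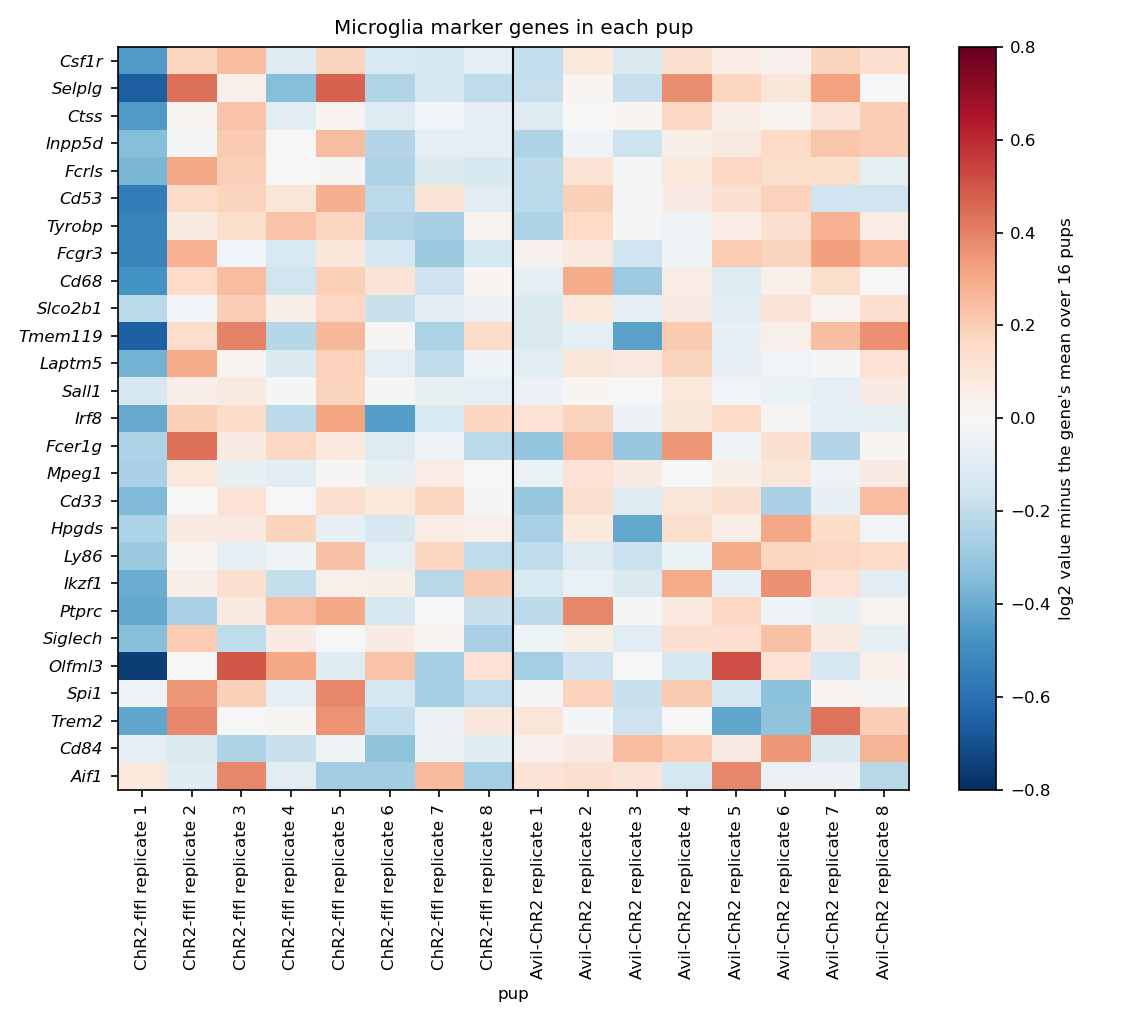
Log2 value of each of the 27 measured microglia marker genes in each of the 16 pups, minus that gene's mean over all pups, with blue for lower and red for higher values, ordered by co-variation with the other members. The column of ChR2-flfl replicate 1 is blue in nearly every row, and the rows of Cd84 and Aif1 at the bottom do not follow the others.

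The members varied together between pups. Over the 351 pairs of members, the median Pearson r was 0.49 after subtraction of the genotype means, and 89.7% of pairs were above 0. Over pairs of all genes analyzed, the median r was -0.0020 and 49.8% were above 0. Without ChR2-flfl replicate 1 the median r of the member pairs was 0.31. The closest pair was Ctss and Csf1r with r = 0.89, which was 0.81 without that pup.

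Each member was compared with the mean of the other members over the 16 pups, and 21 of 27 had a permutation p under 0.05 after adjustment over the members for Pearson's r and 16 for Spearman's rho. Csf1r followed the others most closely, with r = 0.96 and rho = 0.91 (permutation p = 1e-05 for both, the smallest that the permutations can give, adjusted p = 0.00014 and 0.00027), and r = 0.93 without the 2 pups farthest from the median. Selplg had r = 0.85 and rho = 0.83 (adjusted permutation p = 0.00014 and 0.0016), and r = 0.78 without these pups. Ctss had r = 0.84 and rho = 0.70 (adjusted permutation p = 0.00076 and 0.0095), and r = 0.58 without them. For other members the relation rested largely on these pups, among them Mpeg1, where r fell from 0.63 to 0.088, Cd33 with 0.61 and 0.14, and Olfml3 with 0.50 and -0.046. Spi1 had r = 0.49 with all pups and 0.74 without the 2 farthest.

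Aif1 and Cd84 did not follow the other members. Aif1 had r = -0.16 and rho = -0.21 (adjusted permutation p = 0.57 and 0.48), and r = -0.034 without the 2 farthest pups. Cd84 had r = -0.044 and rho = -0.026 (adjusted permutation p = 0.87 and 0.92), and r = -0.048 without them. Aif1 was at 2.49 normalized reads in ChR2-flfl replicate 1, above its ChR2-flfl median of 2.21, although 20 other members were at their lowest in that pup. Cd84 had the fewest reads of the members, 37 to 88 per pup, and Aif1 had 94 to 149. The part of read depth in these values was not tested.

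**Figure D5:**
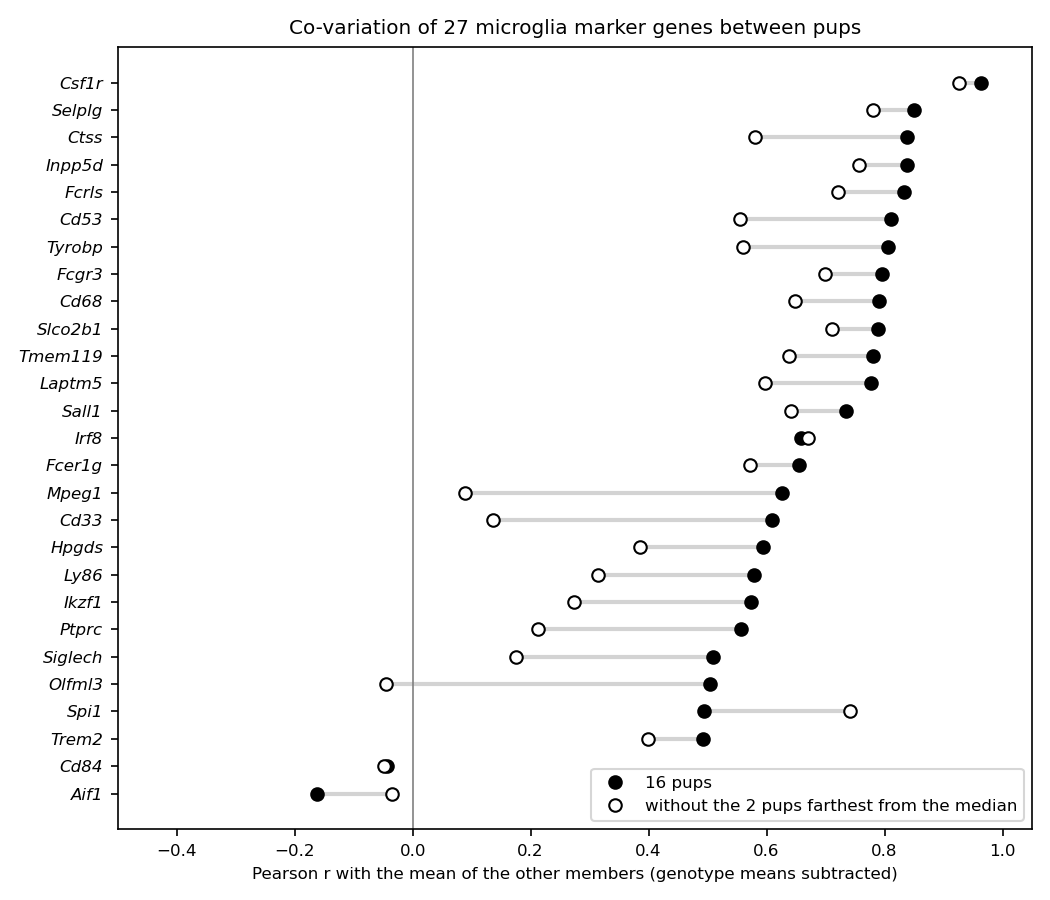
Pearson r of each of the 27 members with the mean of the other members over 16 pups, after subtraction of the genotype means (filled), and without the 2 pups farthest from the median (open). Csf1r is highest with 0.96 and 0.93, Cd84 and Aif1 lie near or under 0, and the open points of Mpeg1, Cd33 and Olfml3 fall far to the left of the filled ones.

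Transcripts of other cells varied along with the members. The mean of 12 other gene lists was compared with the members' mean over the 16 pups in the same way, and the astrocyte markers gave the highest value, with r = 0.87 and rho = 0.84 (permutation p = 5e-05 and 0.00013, adjusted over 12 lists 0.00024 and 0.00078). This r was 0.75 without the 2 farthest pups, 0.97 in the earlier and 0.52 in the later pup numbers. The complement and fractalkine genes of microglia had r = 0.85 and rho = 0.79 (adjusted permutation p = 0.00024 and 0.0014), with r = 0.79 without the 2 farthest pups, 0.94 in the earlier and 0.69 in the later numbers. The endothelial markers had r = 0.78 and rho = 0.69 (adjusted permutation p = 0.00087 and 0.011), with r = 0.63 without the 2 farthest pups, 0.91 in the earlier and 0.48 in the later numbers. The CSF1, TGF-beta and TREM2 pathway genes had r = 0.82 and rho = 0.84 (adjusted permutation p = 0.00024 and 0.00078), with r = 0.71 without the 2 farthest pups, 0.82 in the earlier and 0.79 in the later numbers. Lower values came from the choroid plexus list, with r = 0.62 and rho = 0.61 (adjusted permutation p = 0.024 and 0.035, r = 0.60 without the 2 farthest pups), and the border macrophage list, with r = 0.59 and rho = 0.59 (adjusted permutation p = 0.029 and 0.038, r = 0.62 without them). The other 6 lists had an adjusted permutation p above 0.05 for both measures. Among them, the neuron markers had r = 0.49 and rho = 0.34 (adjusted permutation p = 0.086 and 0.33), with r = 0.24 without the 2 farthest pups. For the neuron markers, r was 0.54 in the earlier and 0.78 in the later pup numbers, and 0.22 without ChR2-flfl replicate 1. The activated microglia genes had r = 0.20 and rho = 0.28 (adjusted permutation p = 0.53 and 0.39), with r = 0.26 without these pups. The lymphocyte, monocyte and neutrophil, and red blood cell lists had r of 0.30, 0.25 and -0.0088 (adjusted permutation p = 0.40, 0.45 and 0.98), rho of 0.30, 0.11 and 0.026 (adjusted permutation p = 0.39, 0.76 and 0.92), and r of 0.18, 0.095 and 0.21 without these pups. The oligodendrocyte lineage markers had r = -0.048 and rho = 0.11 (adjusted permutation p = 0.94 and 0.76), with r = 0.26 without the 2 farthest pups. ChR2-flfl replicate 1 was the lowest pup in the mean of the astrocyte, endothelial, neuron and choroid plexus lists as well as in the members. It was also the lowest in the complement and fractalkine list and in the CSF1, TGF-beta and TREM2 list. Without that pup, r was 0.78 for the astrocyte, 0.78 for the CSF1, TGF-beta and TREM2, 0.74 for the complement and fractalkine, 0.69 for the endothelial, 0.69 for the border macrophage and 0.55 for the choroid plexus list. The comparison of list means was added after the values were seen. What these cell types contribute to the variation of the members was not tested.

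Among genes outside all lists whose mean log2 was 0 or more, the 10 most like the members' mean between pups had r between 0.87 and 0.92 over 16 pups. The closest were Ephx2, an epoxide hydrolase of lipid metabolism, with r = 0.92, and Nde1, a centrosomal dynein regulator, with r = 0.92. They were followed by Map6d1 with 0.91 and Pygm, the muscle form of glycogen phosphorylase, with 0.90. Susd2 had r = 0.89, the selenium carrier Sepp1 and the lipase Abhd12 0.88, and the membrane protein Itm2b and the matrix protein Sparc 0.87. Without ChR2-flfl replicate 1, r of these 10 genes ranged from 0.74 for Abhd12 to 0.91 for Ephx2. Leaving out the 2 pups farthest from the median gave 0.68 for Sepp1 to 0.89 for Susd2. Cx3cr1, the fractalkine receptor of microglia and a gene of the complement and fractalkine list, reached r = 0.94. These values are descriptions over 15137 genes, of which 76 had r above 0.8. A member's own value is part of the members' mean, so members are left out of this comparison, and 65 of the 76 genes were no members.

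Genes around the members in their pathways did not separate the genotypes. The list of CSF1, TGF-beta and TREM2 pathway genes had 18 tested entries (2 of them for Dock2), of which 8 were above 0 and 10 below, with 0 higher and 1 lower at an unadjusted p. Il34, the CSF1R ligand made by neurons, had normalized reads of 21.9 ± 2.97 in ChR2-flfl against 24.0 ± 2.20 in Avil-ChR2 cortices (SD, n = 8 each), a log2 difference of 0.14 (limma adjusted p = 0.93), and the ligand Csf1 had no value, lying inside another entry. The TGF-beta receptor Tgfbr1 had 78.6 ± 5.94 and 75.3 ± 5.56 in the same order (SD, n = 8 each).

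In the list of complement and fractalkine genes, 6 of 7 were above 0 with a median log2 difference of 0.044, and none reached an unadjusted p under 0.05. Cx3cr1 had normalized reads of 22.7 ± 3.03 in ChR2-flfl against 23.1 ± 1.81 in Avil-ChR2 cortices (SD, n = 8 each). C1qb and C1qc, chains of the complement protein that tags synapses, had 9.99 ± 1.30 and 10.3 ± 1.15, and 10.04 ± 2.20 and 9.99 ± 1.10, respectively (SD, n = 8 each). In the list of activated and axon tract microglia genes, 8 of 15 tested genes were above 0, none reached an unadjusted p under 0.05, and the median was 0.0027. Its most abundant genes, Apoe, Ctsb, Fabp5 and Lpl, are also made by other brain cells and had log2 differences of 0.058, 0.039, 0.0027 and -0.013.

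Some members are also made by other macrophages and blood cells, whose markers were measured in the same cortices. Of 12 markers of border macrophages, which line the meninges and vessels, 10 were above 0, none at an unadjusted p under 0.05, and their summed level ranged from 48.8 to 68.6 normalized reads in ChR2-flfl and from 48.7 to 78.7 in Avil-ChR2 cortices. The members' own sum ranged from 163 to 232 and from 191 to 223. The most abundant border markers were Stab1, with 31.2 ± 3.92 and 31.9 ± 5.20 (SD, n = 8 each), and Mrc1, with 17.1 ± 2.48 and 17.6 ± 3.38 (SD, n = 8 each). Markers of monocytes and neutrophils summed to 1.13 to 2.75 and 0.967 to 2.88 normalized reads, with Ccr2 higher and Ngp and Camp lower in Avil-ChR2 at an unadjusted limma p under 0.05. Over all genes, 1.95% were higher and 3.46% lower at that threshold. These genes had very few reads. In ChR2-flfl against Avil-ChR2 cortices, the mean was 0.091 against 0.157 for Ccr2, 0.18 against 0.080 for Ngp and 0.096 against 0.036 for Camp. Ccr2 had values in 14 of 16 pups and Camp in 13, with the others set to -5. Markers of lymphocytes summed to 0.373 to 0.840 and 0.470 to 1.09, with Cd79b higher at an unadjusted limma p under 0.05. The mean of Cd79b was also low, 0.22 in ChR2-flfl against 0.35 in Avil-ChR2 cortices. Ly6g, a defining gene of neutrophils, had no value in any pup. Hemoglobin and other red blood cell genes summed to 227 to 466 and 237 to 358, and all 6 were below 0, with Slc4a1 lower at an unadjusted limma p under 0.05. None of these lists had a gene with an adjusted p under 0.05, and their part in the members' values was not tested.

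The markers of neural cells and vessels likewise gave 0 genes at an adjusted p under 0.05. Astrocyte markers were above 0 in 7 of 8 genes with a median of 0.053, endothelial markers in 6 of 8 with 0.038, oligodendrocyte lineage markers in 7 of 10 with 0.026, and neuron markers in 6 of 8 with 0.022. At an unadjusted p, Slc17a7, the vesicular glutamate transporter of cortical neurons, was higher with a log2 difference of 0.11 and the dendritic protein Map2 lower with -0.077. Choroid plexus markers were above 0 in 3 of 4 tested genes and summed to 2.99 to 5.92 and 3.54 to 7.25 normalized reads, with Ttr higher at an unadjusted limma p under 0.05. Ttr had very few reads, with a mean of 0.118 in ChR2-flfl against 0.319 in Avil-ChR2 cortices and values in 14 pups.

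Because the transcription factors Spi1 and Irf8 are themselves members, the promoters of the members were searched for their binding letters. RefSeq promoters (GRCm38.p6, from 250 bases before to 50 bases after the transcription start) were found for 24 of the 30 members. The 8 letters GAGGAAGT, bound by PU.1, stood on either strand in 5 of these 24 members (20.8%), against 3.69% of all 27025 gene symbols of the promoter table. The composite of PU.1 with an IRF (GGAA, any pair of bases, then GAAA) was found in Cd68 only, against 3.16% of all symbols. The RUNX letters TGTGGT were found in 9 of 24 members (37.5%), against 18.9% of all symbols. The stretches around the PU.1 letters of the 5 members are shown so that the match can be read in place. Between pups, Ctss, Inpp5d, Cd53, Slco2b1 and Hpgds had r of 0.84, 0.84, 0.81, 0.79 and 0.59 with the mean of the other members. The median over all measured members was 0.66, and Csf1r with 0.96 and Selplg with 0.85 are not among these 5. With Spi1 itself, the 5 genes had r of 0.34, 0.36, 0.29, 0.48 and 0.030 in the same order. The median over all pairs of members was 0.49. Whether the PU.1 letters go with co-variation was not tested. Capitals mark the match, read 5′ to 3′ on the strand of the gene, and ACTTCCTC is the same site on the opposite strand.
Inpp5d (chr1:87620262-87620329, plus strand): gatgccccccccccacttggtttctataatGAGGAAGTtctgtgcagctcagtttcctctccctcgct
Ctss (chr3:95526754-95526815, plus strand): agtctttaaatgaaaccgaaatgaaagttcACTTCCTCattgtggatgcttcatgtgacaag
Cd53 (chr3:106790120-106790173, minus strand): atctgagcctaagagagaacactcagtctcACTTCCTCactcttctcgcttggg
Hpgds (chr6:65144742-65144809, minus strand): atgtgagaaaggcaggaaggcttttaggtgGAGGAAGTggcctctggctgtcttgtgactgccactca
Slco2b1 (chr7:99711311-99711364, minus strand): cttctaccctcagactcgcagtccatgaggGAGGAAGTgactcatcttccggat
The first base of the match lies at -20 from the transcription start in Inpp5d, -2 in Ctss and -49 in Hpgds, and at 7 in Cd53 and Slco2b1, where position 1 is the start base. The genotype log2 differences of these 5 genes were 0.067, 0.12, 0.0089, 0.0069 and 0.036 in the order printed. A match of letters is a description of the sequence and was not tested for binding in these cortices.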

How the data were processed

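Cortices of 8 ChR2-flfl and 8 Avil-ChR2 pups were analyzed. Alignment by the authors used SeqMan NGen 17 and mm10 (GRCm38), with a minimum read length of 50 bp. Gene counts were made by the authors in ArrayStar 17 and then scaled by them with the TMM factors of edgeR. The deposited values are therefore TMM-scaled CPM on a linear scale, and genes without reads are empty. The sharing of reads between overlapping genes, and any use of strand, are not given in the sources used here, and Csf1r, Siglech, Laptm5, Sall1, Slco2b1, Inpp5d, Hpgds, Ikzf1 and Fcgr3 overlap small other entries. Divided by the value that 1 read has in a pup, 100% of the values came out whole (within 0.05, checked up to 20000 reads), giving 30549126 to 48711134 reads per pup. No molecular identifiers are mentioned, so depth sets counting error only.

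Values were log2 transformed, missing values and values below -5 were set to -5, and 21183 genes above -5 in at least 12 of 16 pups were fitted with limma 3.58.1 in R 4.3.3 (eBayes with a trend), with Benjamini-Hochberg adjustment over all of them. The genotype fit had no covariate, as in the study's methods. Replicates are separate pups, and their litters are not given. Correlations used values minus genotype means and 100000 permutations (two-sided, scipy 1.17.1). Transcript lengths are from GENCODE M21. The members, gene lists and rules for named genes were chosen with earlier results of these data known. Values per pup are given for the members with the smallest p (6 for genotype, 3 each for sex and pup number) and the most abundant member of each role, and of other lists up to 4 genes are named by p, then level, and a few genes that these rules select are not reported here. Normalization, pseudocount, filter, covariates, pup numbers and each pup left out were varied. The fit was tested on simulated data, with changes placed only in genes whose mean log2 value was 0 or more, a limit set after a first run that drew from all genes recovered too few.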

Additional observations from a re-analysis of the deposited data

Results flagged for a closer look

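Cd33 was the only member with a pup far from the others of its genotype. ChR2-flfl replicate 1 had 2.31 normalized reads of Cd33, and the next lowest ChR2-flfl pup had 2.94. The gap was 0.661 of the whole range on the log2 scale, above Dixon's 95% critical value for 8 pups. Dixon's criterion was applied to 56 groups of 8 values, the 27 members and their mean in both genotypes, and chance flags about 1 in 20 groups, so that 1 in 56 is no excess. The same pup was the lowest of all 16 in 20 members.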

How the results depend on the processing

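No member had an adjusted p under 0.05 in any of 27 alternative genotype fits. The count of members at an unadjusted p under 0.05 was 2, and between 1 and 3 with each pup left out in turn, 1 in pups 26 to 33 and 3 in pups 35 to 42. Cd84 passed in 26 of the 27 fits and Fcgr3 in 20. Fcgr3 was lost without ChR2-flfl replicate 1 or 7 or Avil-ChR2 replicate 5, 6, 7 or 8 and in pups 26 to 33 alone, and Cd84 in pups 35 to 42 alone. Over all genes, 2 passed the adjusted test, and 1 in pups 26 to 33, 1 in pups 35 to 42, 1 with the replicate block, and 1 to 2 with each pup left out. The difference of the members' mean stayed above 0, between 0.015 and 0.087 with each pup left out. With the replicate number as a block the same 2 members, Cd84 and Fcgr3, had an unadjusted p under 0.05. The correlation of same-numbered pups ranged from -0.34 to 0.39, and only replicate 1 correlated best with its own number. These values gave no sign of pairing by number. Whether same-numbered pups share a litter could not be tested, because litters are not given. In the sex comparison, 2 members instead of 1 passed without adjustment when the run of pup numbers was a covariate (Olfml3 and Cd33). In the comparison of the runs, 3 instead of 1 passed with sex as a covariate (Olfml3, Ly86 and Cd33). The cause was not tested. For the refits in this section, shares of all genes at an unadjusted p are not given, so these counts of members have no background beside them. The limma voom fit was chosen after seeing the data. A planned edgeR fit on the recovered reads was not run. The median r of member pairs was 0.31 to 0.52 with each pup left out, lowest without ChR2-flfl replicate 1. Quantile normalization and median centring left 21 of 27 members above 0, and array weights left 18, with a median of 0.058. Depth limits Cd84 most, with 37 to 88 reads per pup.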

Other observations

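Gpnmb, a glycoprotein of activated phagocytes from the list of activated microglia genes, was lower in pups 35 to 42 than in pups 26 to 33, by -1.30 on the log2 scale (limma adjusted p = 0.028). It was the 1 gene among all lists that passed the adjusted test in that comparison, and was named after its values were seen. The normalized reads of Gpnmb were low. Split by genotype, which is another comparison, they were 0.408 ± 0.242 in ChR2-flfl against 0.558 ± 0.344 in Avil-ChR2 cortices (SD, n = 8 each). Its values split by pup numbers are not given here. Oligodendrocyte lineage markers were lower in the later numbers in 9 of 10 genes, 7 of them at an unadjusted p under 0.05, against 6.74% of all genes, and none passed the adjusted limma test. Red blood cell genes were lower in 6 of 6, with 4 at an unadjusted p under 0.05 and none at an adjusted limma p under 0.05.

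Cask, the host gene of Gpr34, ran against the members' mean between pups, with r = -0.62 and rho = -0.39 (permutation p = 0.010 and 0.14, adjusted over 2 host genes 0.020 and 0.27), and r = -0.50 without the 2 pups farthest from the median. Med12l, the host gene of P2ry12 and P2ry13, had r = 0.33 and rho = 0.27 (permutation p = 0.22 and 0.30, adjusted 0.22 and 0.30), and r = 0.16 without these pups. The genes that make up each host's value were not separated here.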
